A study of Rattus norvegicus with 3 samples.

Results

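The genes described here encode the enzymes that make and use glutathione, the thioredoxin and peroxiredoxin system, the superoxide dismutases and catalase, and the transcription factors that regulate many of them. They were taken by name from a rat whole-genome array: glutathione transferases (Gsta, Gstm, Gstp, Gstt, Gstk, Gsto, Gstz and Mgst), thioredoxin genes (Txn), Gpx, Prdx, Sod, Nqo and Hmox genes, and Gclc, Gclm, Gss, Gsr, Cat, Keap1 and Nfe2l1 to Nfe2l3. This gave 66 genes of the 35507 names on the array, carried by 87 probes of 60 bases. The name rule used no measured value, but it was written with earlier results of these data known.

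The study set rat induced pluripotent stem cells of the line M13 (iPS M13), which were untreated and kept on a layer of irradiated mouse embryonic fibroblasts, against mix1, adult rat cells made up of cultured bone marrow cells and primary ear fibroblasts. There were 3 iPS M13 samples, each hybridised in Cy3 on an array of its own against mix1 in Cy5, and the arrays lay on 1 slide. The labels do not say whether the 3 samples came from separate cultures, so a p-value here covers the spread among 3 arrays that may differ only technically. mix1 was 1 RNA, so its own spread is not in any test, no dye was swapped, and dye and cell type cannot be told apart. iPS M13 is 1 line, and the share of feeder RNA in its samples was not measured. In such bulk RNA, fewer cells of a type and less RNA per cell cannot be told apart.

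Glutathione is a small thiol that glutathione peroxidases use to reduce peroxides and that glutathione transferases attach to reactive compounds. Thioredoxin, kept reduced by thioredoxin reductase, serves peroxiredoxins in a parallel route of peroxide removal. Both routes draw on NADPH. The transcription factor NRF2, encoded by Nfe2l2, is held down by KEAP1 and, when released, drives many of these genes through antioxidant response elements in their regulatory DNA.

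A gene was called higher or lower when its Benjamini-Hochberg adjusted p in limma was under 0.05 over all genes tested and its ratio of iPS M13 over mix1 was at least 2-fold, which is 1 on the log2 scale. Of the 66 genes, 58 passed the filter on dim probes and were tested. Of these 58, 8 were higher and 29 were lower in iPS M13, and 21 were not called. Across all 20347 genes tested, 44.2% were called, 18.8% higher and 25.4% lower. Among the members tested, 13.8% were higher and 50% were lower. The median log2 ratio of the members was -0.98, against -0.02 over all genes tested. The filter keeps a gene that is above background in only 1 of the RNAs. This favours a difference towards that RNA without forcing a 2-fold call. With both RNAs well above background on every array, 50 members had 6 higher and 24 lower with a median of -0.82, and 15775 genes had 16.5% higher and 21.9% lower with a median of -0.05. The 8 members that did not pass were Gclm, Gpx5, Gpx6, Gstm4, Gstm6, Txndc3, Txndc8 and Txnl6.

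**Figure D1:**
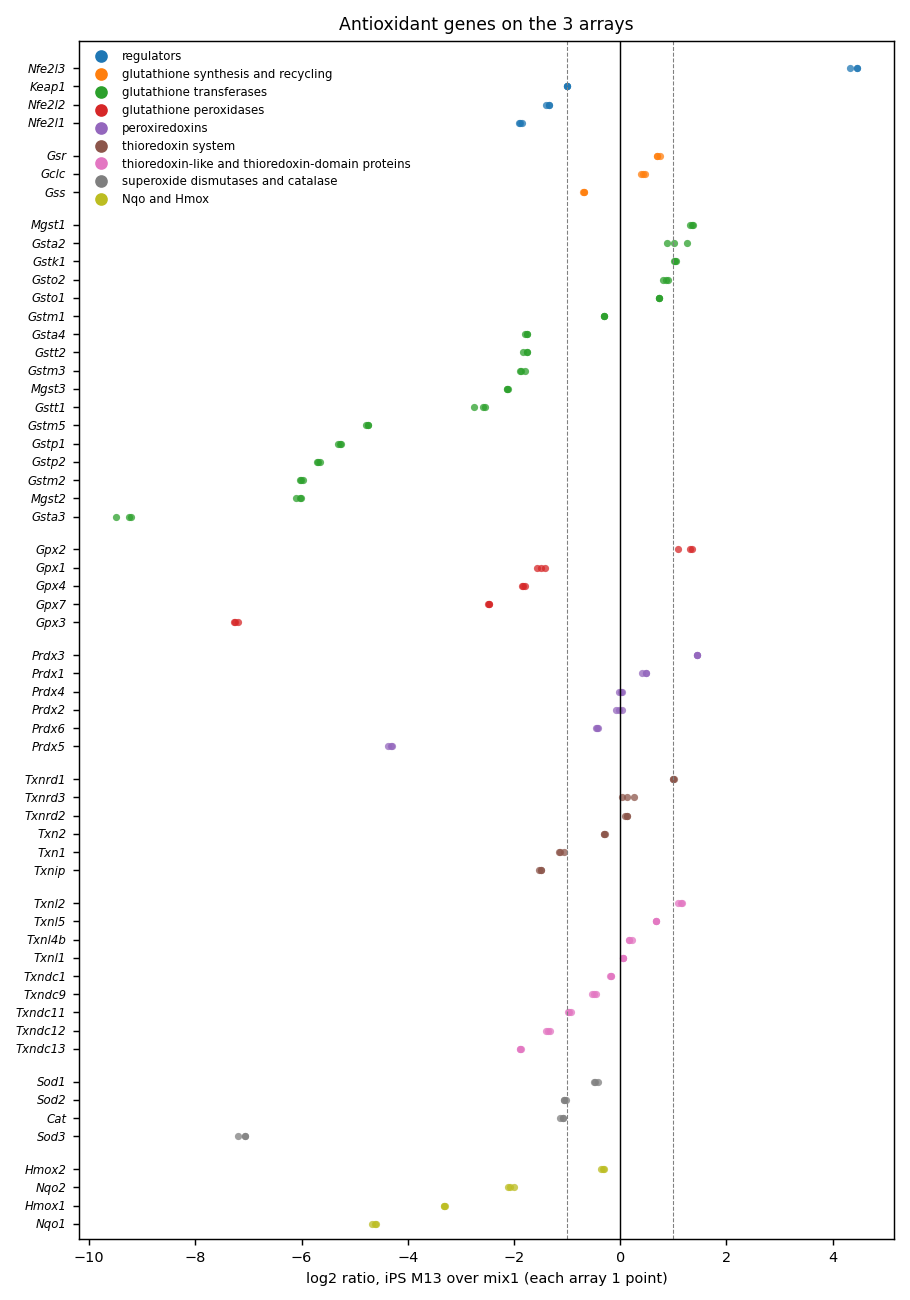
Each point is the log2 ratio of iPS M13 over mix1 for 1 gene on 1 array, for the 58 members tested, grouped by role with the highest ratio first in each group. The dashed lines mark 2-fold. Nfe2l3 stands at 4.41 on the right, and glutathione transferases, Gpx3, Sod3, Prdx5 and Nqo1 reach below -4 on the left.

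All 37 called members had the same sign on all 3 arrays, which the 2-fold minimum all but fixed given SDs this small. Their adjusted p-values in limma ran from 6.19e-07 to 0.00055. The SD of a member's ratio between arrays had a median of 0.031 and a highest value of 0.19, that of Gsta2. Over all 20347 genes tested the median SD was 0.034, and 19549 had an adjusted p under 0.05 in limma, as did 55 of the 58 members. A small p-value is therefore not particular to these genes. How many of all genes had groups without overlap was not counted, so a lack of overlap sets no gene apart here. The scale of the ratios depended on the processing. Within-array loess, used here, placed the median of all genes near 0, whereas median centring, no normalization and the scanner software's own processed signals raised that median by 0.60, 0.55 and 0.31. The order of members also changed in part. Gpx2 was below Prdx3 with loess (1.26 and 1.45) and above it with processed signals (2.94 and 1.63). The members' median minus the all-gene median was -0.96 with loess, and -0.71, -0.71 and -0.90 under those scalings. With no filter on dim probes it was -0.45. The share of all calls that were higher was 67.2%, 65.1% and 56.6% under these, against 42.5% with loess, and the members had 13 higher and 20 lower, 13 and 21, and 10 and 25. Ratios within about 1 of 0 are therefore given as values, and their sign is said to flip where it did. Among called genes, calls that changed under at least 1 of 12 alternatives were those of Gsta2, Gstk1 and Txnrd1 among the higher genes and of Cat, Gpx1, Gsta4, Gstt2, Keap1, Nfe2l2, Sod2, Txn1, Txndc12 and Txnip among the lower ones.

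The probes and promoters that the results turn on are printed first. Probe positions are in build rn3, per the file headers, and the files give no exon or UTR for them. The Nfe2l3 probe lies at chr4:79971582-79971641, the Gstp1 probe at chr1:206782597-206782754, and the 3 Gstm5 probes at chr2:203420315-203420465, chr2:203421320-203421630 and chr2:203420991-203421219. A probe whose positions span more than its 60 bases is interrupted in the genome, which held for 28 of the 87 member probes. The 3 Gstm5 probes are shown because they carry coordinates on different strands.
Nfe2l3 probe: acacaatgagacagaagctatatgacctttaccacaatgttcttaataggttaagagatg
Gstp1 probe: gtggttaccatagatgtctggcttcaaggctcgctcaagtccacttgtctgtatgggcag
Gstm5 probe 1: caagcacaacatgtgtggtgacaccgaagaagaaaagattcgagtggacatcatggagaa
Gstm5 probe 2: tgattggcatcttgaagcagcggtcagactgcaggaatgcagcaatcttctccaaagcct
Gstm5 probe 3: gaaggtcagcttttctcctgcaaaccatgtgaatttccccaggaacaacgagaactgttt

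Promoters were taken from RefSeq on build GRCr8, from 250 bases before to 50 after each start, and were searched on both strands for TGACNNNGC (GCNNNGTCA on the other strand), a core of the antioxidant response element. The motif was present in 17 of 63 distinct promoters of members (27.0%), against 4038 of all 33469 promoters (12.1%). Counted by gene, 18 of 57 members with a promoter in the table held it, with Gstp1 and Gstp2 sharing 1 promoter. By call, and again by gene, it was present for 3 of 8 higher members (37.5%) and 8 of 23 lower members (34.8%). Of members tested and not called, 6 of 18 held it (33.3%). A gene counted if any of its promoters held the motif. The share by gene over all genes was not counted, and the 12.1% is per promoter, so it is not a like comparison for these. The median log2 ratio was -0.96 over the 17 tested members with the motif and -0.58 over the 32 without it. The 5 promoters below are those of a gene in each class of result, with the motif in capitals, written 5′ to 3′ on the strand of the gene. Gpx2 (chr6:101229984-101230283, minus strand) and Txnrd1 (chr7:22755855-22756154, minus strand) were higher, Prdx1 (chr5:135383656-135383955, plus strand) was not called, and Gstm5 (chr2:198219519-198219818, plus strand) and Gstp1 (chr1:210769656-210769955, minus strand) were lower. RefSeq lists a further Txnrd1 promoter, in which these letters were not found.
Gpx2 promoter: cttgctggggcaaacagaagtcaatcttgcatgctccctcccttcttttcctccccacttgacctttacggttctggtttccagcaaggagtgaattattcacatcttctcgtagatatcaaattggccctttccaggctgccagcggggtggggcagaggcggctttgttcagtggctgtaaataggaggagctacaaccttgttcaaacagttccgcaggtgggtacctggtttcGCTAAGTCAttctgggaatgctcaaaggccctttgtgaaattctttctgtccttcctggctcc
Txnrd1 promoter: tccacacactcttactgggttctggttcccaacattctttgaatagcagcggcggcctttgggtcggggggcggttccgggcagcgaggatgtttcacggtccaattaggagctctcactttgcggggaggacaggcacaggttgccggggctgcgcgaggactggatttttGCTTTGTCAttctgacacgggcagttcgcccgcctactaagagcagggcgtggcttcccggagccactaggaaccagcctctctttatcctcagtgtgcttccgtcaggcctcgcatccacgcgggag
Prdx1 promoter: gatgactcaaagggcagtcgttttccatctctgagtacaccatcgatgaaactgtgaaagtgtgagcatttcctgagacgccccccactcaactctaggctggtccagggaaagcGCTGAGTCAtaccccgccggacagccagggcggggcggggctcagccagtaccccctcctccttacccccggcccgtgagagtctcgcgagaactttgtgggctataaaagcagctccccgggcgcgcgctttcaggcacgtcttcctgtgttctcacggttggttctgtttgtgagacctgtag
Gstm5 promoter: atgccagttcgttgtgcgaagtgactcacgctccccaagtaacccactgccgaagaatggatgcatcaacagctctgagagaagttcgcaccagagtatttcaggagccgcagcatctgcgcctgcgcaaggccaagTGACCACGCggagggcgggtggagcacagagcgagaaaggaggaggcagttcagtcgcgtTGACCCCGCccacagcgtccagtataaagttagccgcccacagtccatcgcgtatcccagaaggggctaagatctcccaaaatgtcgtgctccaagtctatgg
Gstp1 promoter: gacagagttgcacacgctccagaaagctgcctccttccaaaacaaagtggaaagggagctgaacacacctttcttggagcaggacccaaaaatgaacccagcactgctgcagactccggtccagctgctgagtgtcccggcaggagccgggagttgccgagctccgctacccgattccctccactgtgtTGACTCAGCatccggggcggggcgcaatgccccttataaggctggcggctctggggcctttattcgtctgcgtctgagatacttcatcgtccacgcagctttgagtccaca

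The first letter of the motif lay at position -13 from the start in Gpx2, -78 in Txnrd1, -135 in Prdx1 and -61 in Gstp1. Gstm5 held 2 matches, the first at -113. A match is a description of these letters and not a site of binding.

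**Figure D2:**
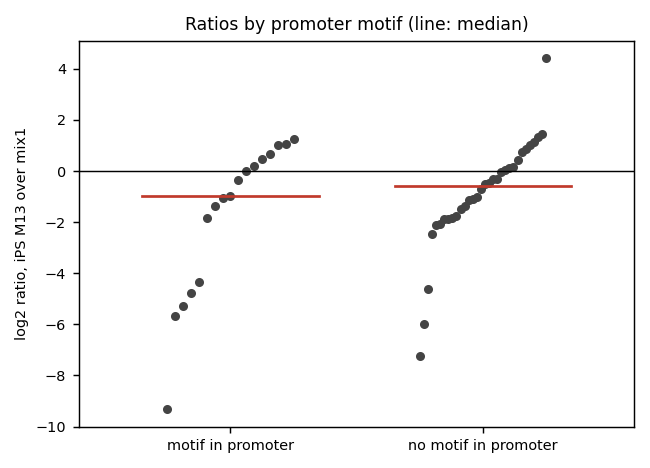
Each point is the log2 ratio of iPS M13 over mix1 (mean of 3 arrays) of 1 tested member with a promoter in the RefSeq table, split by whether TGACNNNGC is present on either strand. The red lines are the medians, -0.96 for the 17 genes with the motif and -0.58 for the 32 without, and the range of each set spans 0.

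Among the regulators, Nfe2l3 was higher and Nfe2l2, Nfe2l1 and Keap1 were lower in iPS M13. Nfe2l3 encodes NRF3, a membrane-bound relative of NRF2. Its log2 signal was 12.88, 13.03 and 12.91 in iPS M13 on replicates 1, 2 and 3, against 8.41, 8.71 and 8.45 in mix1. Every iPS M13 value lay far above every mix1 value, and the ratio of 4.41 ± 0.08 (SD, n = 3 arrays), or 21.3-fold, was the highest of all members (adjusted p = 1.4e-06, limma).

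Nfe2l2, the gene of NRF2 itself, had log2 signals of 12.76, 12.83 and 12.86 in iPS M13, against 14.11, 14.16 and 14.25 in mix1. The groups did not overlap, and the ratio was -1.36 ± 0.03 (SD, n = 3 arrays; adjusted p = 3.51e-06, limma). Under median centring and no normalization it was -0.55 and -0.61, short of 2-fold. Nfe2l1 encodes NRF1, which regulates proteasome and antioxidant genes, and its ratio was -1.88 ± 0.02. A second Nfe2l1 probe gave -2.14. Keap1, the adaptor that marks NRF2 for degradation, stood at the threshold with -1.002 ± 0.0085. It was not called without replicate 1 or without replicate 2 (-0.9997 in both), nor under median centring (-0.16), no normalization (-0.22) or processed signals (-0.65).

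The genes of glutathione synthesis and recycling were not called. Gclc encodes the catalytic subunit of glutamate-cysteine ligase, the rate-limiting step, and its ratio was 0.43 ± 0.04. Gss, glutathione synthetase, had a ratio of -0.68 ± 0.01, which was 0.14 and 0.09 under median centring and no normalization. Gsr, the reductase that returns oxidised glutathione to its reduced form, had log2 signals of 10.99, 10.90 and 11.03 in iPS M13, against 10.23, 10.21 and 10.34 in mix1. The Gsr groups did not overlap, but the ratio of 0.71 ± 0.04 was below 2-fold. It was 1.52 under median centring, 1.46 with no normalization and 1.19 with processed signals, all above 2-fold, and Gclc was above 2-fold under median centring (1.16) and no normalization (1.10). Gclm, the modifier subunit of the ligase, did not pass the filter on dim probes.

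Most glutathione transferases were lower in iPS M13. Of 17 tested, 11 were lower (64.7%) and 3 higher (17.6%), with a median log2 ratio of -1.85. Over all genes tested, 25.4% were lower and 18.8% higher. Gsta3 is named Gsta1 in current RefSeq and encodes an alpha class transferase that is abundant in liver. Its log2 signal was 6.69, 6.65 and 6.46 in iPS M13, against 15.91, 15.89 and 15.96 in mix1. It was dim on all 3 iPS M13 arrays and bright on every mix1 array, so its level in iPS M13 was at least 468-fold lower (adjusted p = 1.15e-06, limma). Gsta3 passed the filter through mix1 alone, which favoured a lower ratio in advance, and the p-value adds no support. The same limit holds for Gstm2, and for Gsta2 and Gpx2, which passed through iPS M13 alone. A bound of this kind sets the mean of the bright RNA against, per array, whichever is higher, the signal of the dim probe or the dimmest signal of a probe well above background. A signal is called dim here where the scanner software did not mark it as well above background.

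Gstp1 encodes the pi class transferase that is widespread outside the liver. Its log2 signal was 10.83, 10.71 and 10.84 in iPS M13, against 16.11, 15.97 and 16.16 in mix1. The groups lay far apart, with a ratio of -5.29 ± 0.03, or 39.0-fold lower (adjusted p = 6.19e-07, limma). The probe named Gstp2 gave -5.69 ± 0.03, and current RefSeq lists Gstp2 as a synonym of Gstp1, so the names may be 2 probes of 1 gene and are not independent.

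The mu class ranged widely. Gstm2 was at least 57.2-fold lower in iPS M13, where its probe was dim on all 3 arrays. Gstm5 was lower with -4.76 ± 0.02 on the brightest probe, probe 1 above. Probes 2 and 3 were dim in iPS M13 on all 3 arrays and give only a bound, at least 3.22-fold and 2.01-fold lower. Their coordinates run on the minus strand in the files and those of probe 1 on the plus strand, so the 3 probes cannot all read 1 strand. The RefSeq gene runs on the plus strand, as probe 1 does. The bounds of probes 2 and 3 are therefore not taken as a measure of Gstm5 RNA. Gstm3, named Gstm7 in current RefSeq, was lower with -1.85 ± 0.05 and was above background in iPS M13 on 1 of 3 arrays. Gstm1 was not called, with -0.31 ± 0.0036, and its sign flipped under median centring (0.54), no normalization (0.48) and processed signals (0.07). No pair of member probes other than those of Nfe2l1 and Txnl2 shared a run of 15 or more bases.

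The microsomal transferases, membrane enzymes, went in opposite directions. Mgst1 had log2 signals of 13.37, 13.43 and 13.43 in iPS M13, against 12.02, 12.05 and 12.11 in mix1. All iPS M13 values were above all mix1 values, and the ratio was 1.35 ± 0.03 (adjusted p = 3.49e-06, limma). Mgst2 was lower with -6.05 ± 0.05 and Mgst3 with -2.12 ± 0.01.

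The theta class and Gsta4 were also lower. Gstt1 had -2.63 ± 0.11 and was above background in iPS M13 on 1 of 3 arrays, and Gstt2 had -1.78 ± 0.04. Gsta4, which acts on lipid peroxidation products such as 4-hydroxynonenal, had -1.77 ± 0.02. Gstk1, a kappa class enzyme of mitochondria and peroxisomes, was higher with 1.04 ± 0.02. Gsta2 was higher with 1.05 ± 0.19, at least 2.01-fold since mix1 was dim on all 3 arrays, and was not called without replicate 3 (0.95). A second Gsta2 probe, dim in mix1 on all 3 arrays, gave at least 2.49-fold. Of the omega class, Gsto2 had 0.86 ± 0.05 and Gsto1 had 0.74 ± 0.0031, and neither was called. Both passed 2-fold under median centring (1.16 and 1.38) and no normalization (1.10 and 1.33), and Gsto2 also with processed signals (1.73).

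Of 5 glutathione peroxidases tested, 4 were lower and 1 was higher, where 25.4% of all genes tested were lower and 18.8% higher. Gpx3 encodes the secreted plasma enzyme. Its log2 signal was 7.32, 7.24 and 7.40 in iPS M13, against 14.59, 14.43 and 14.66 in mix1. The iPS M13 values lay near background, well above it on 2 of 3 arrays, and the ratio was -7.24 ± 0.04 (adjusted p = 6.19e-07, limma).

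Gpx4, which reduces lipid hydroperoxides in membranes, had log2 signals of 13.36, 13.63 and 13.52 in iPS M13, against 15.21, 15.42 and 15.35 in mix1. Both RNAs were bright and did not overlap, with a ratio of -1.83 ± 0.03. Gpx1, the main cytosolic enzyme, had -1.49 ± 0.07, and -0.90 when a trend with probe GC content was removed. Gpx7, an enzyme of the endoplasmic reticulum, had -2.48 ± 0.01. Gpx2, the enzyme of the gut epithelium, was called higher with 1.26 ± 0.14. As mix1 was dim on all 3 arrays, only a bound is measured, at least 1.68-fold, which is short of 2-fold. The Gpx2 call therefore rests on a dim mix1 signal.

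The peroxiredoxins split between 1 higher (16.7%), 1 lower (16.7%) and 4 not called. These shares were not above the 18.8% higher and 25.4% lower over all genes tested. Prdx3, the mitochondrial enzyme, had log2 signals of 16.33, 16.35 and 16.39 in iPS M13, against 14.88, 14.89 and 14.95 in mix1. The iPS M13 values were higher on every array, with a ratio of 1.45 ± 0.0057 (adjusted p = 1.58e-06, limma). Prdx5, found in mitochondria, peroxisomes and cytosol, had 12.68, 12.67 and 12.69 in iPS M13, against 17.00, 17.04 and 16.99 in mix1. It was lower by far in iPS M13, with a ratio of -4.33 ± 0.04 (adjusted p = 6.45e-07, limma).

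The other 4 members of the family were not called. Prdx1, a cytosolic enzyme and known NRF2 target, had log2 signals of 16.53, 16.57 and 16.32 in iPS M13, against 16.04, 16.09 and 15.91 in mix1, with a ratio of 0.46 ± 0.04. Prdx4, of the secretory pathway, had 0.01 ± 0.03 (adjusted p = 0.541, limma) and Prdx2 had -0.02 ± 0.06 (adjusted p = 0.482, limma). Prdx6, which also has phospholipase activity, had -0.44 ± 0.02. The signs of Prdx2 and Prdx6 flipped under median centring (0.37 and 0.34) and no normalization (0.32 and 0.29), and Prdx2 also under processed signals (0.32). Under median centring and no normalization Prdx1 had 0.90 and 0.84, and Prdx4 had 0.77 and 0.71.

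In the thioredoxin system Txnrd1 was higher, and Txn1 and Txnip were lower. Txnrd1 encodes the cytosolic reductase, and its brightest probe had log2 signals of 14.13, 14.07 and 14.25 in iPS M13, against 13.13, 13.06 and 13.23 in mix1. The iPS M13 values were above those of mix1 on each array, but the ratio of 1.01 ± 0.01 stood at the threshold, and the 4 Txnrd1 probes ran from 0.30 to 1.01 with a mean of 0.68. The probe with 0.92 carries coordinates on the strand opposite to the RefSeq gene. Txn1, cytosolic thioredoxin, had 16.001, 15.97 and 15.97 in iPS M13, against 17.06, 17.13 and 17.11 in mix1, a ratio of -1.12 ± 0.05. It was -0.73 under median centring and -0.81 with processed signals. Txnip, which binds and inhibits thioredoxin, had -1.505 ± 0.02, and -0.67 under median centring.

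The mitochondrial pair was not called. Txn2, mitochondrial thioredoxin, had -0.30 ± 0.02, which was 0.48 under median centring and 0.43 with no normalization. Txnrd2, its reductase, had 0.11 ± 0.02, and Txnrd3, a reductase of testis, had 0.14 ± 0.11 (adjusted p = 0.0556, limma).

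Of 9 thioredoxin-like and thioredoxin-domain genes tested, 1 was higher (11.1%), 2 lower (22.2%) and 6 not called. These shares were not above those over all genes tested, 18.8% higher and 25.4% lower. Txnl2, now named Glrx3, an iron-sulfur carrier, had log2 signals of 16.01, 16.07 and 16.06 in iPS M13, against 14.85, 14.92 and 14.96 in mix1. The groups did not overlap, the ratio was 1.13 ± 0.03, and a second probe gave 0.90. Txndc13, now Tmx4, and Txndc12, both of the endoplasmic reticulum, had -1.88 ± 0.0065 and -1.36 ± 0.03. Txndc12 was short of 2-fold under median centring and no normalization. The 6 not called ran from 0.68 for Txnl5 (now Txndc17), through Txnl4b, Txnl1, Txndc1 (now Tmx1) and Txndc9, to -0.96 for Txndc11. Among these, Txnl5 passed 2-fold under median centring (1.39) and no normalization (1.34), and Txndc1 and Txndc9 had ratios above 0 under median centring (0.66 and 0.34).

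**Figure D3:**
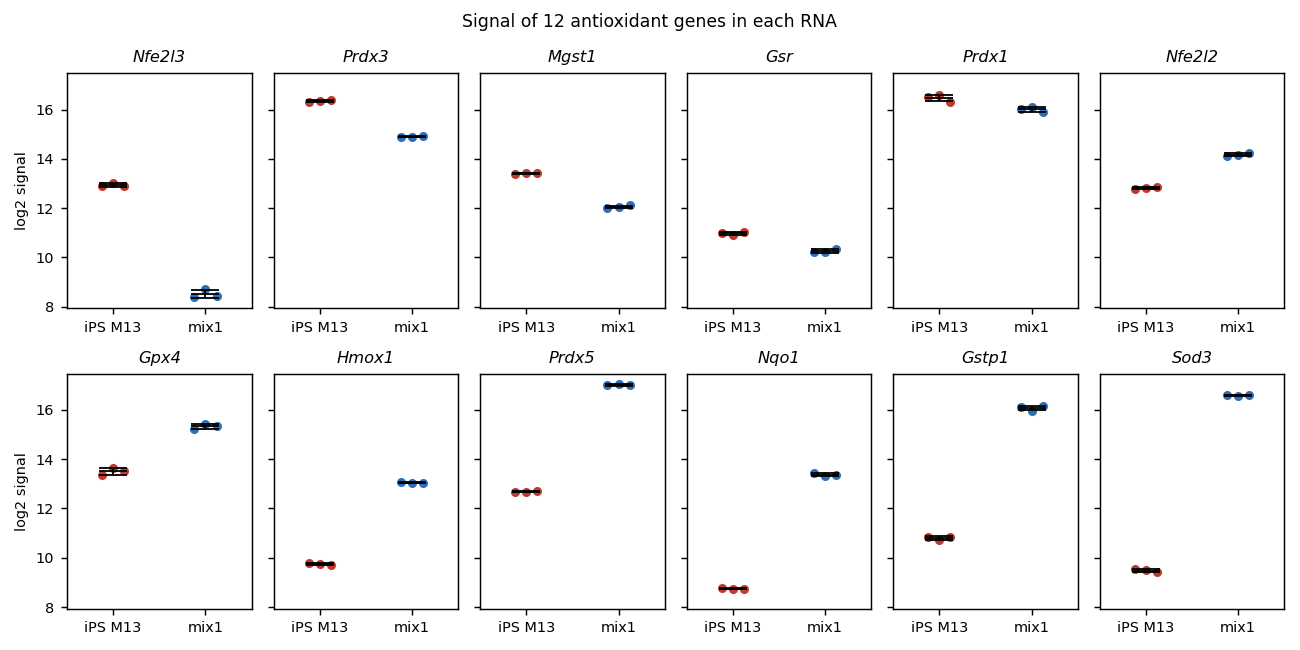
Each panel shows the log2 signal of 1 gene in iPS M13 (left) and mix1 (right) on the 3 arrays, with the mean and SD, after loess and scaling between arrays. Signals of different genes come from different probes and are compared only within a panel. Nfe2l3, Prdx3, Mgst1, Gsr and Prdx1 are above in iPS M13 and the others are above in mix1, with no overlap of the 2 groups in any panel. The genes shown were picked from the members, and the share of all genes without overlap was not counted.

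Superoxide dismutases convert superoxide to hydrogen peroxide, which catalase breaks down. Sod3, the extracellular enzyme made by fibroblasts and vascular cells, had log2 signals of 9.53, 9.504 and 9.41 in iPS M13, against 16.59, 16.57 and 16.62 in mix1. The ratio was -7.11 ± 0.08, or 138-fold lower, with the 2 groups far apart (adjusted p = 7.12e-07, limma). Sod2, the mitochondrial enzyme, had -1.05 ± 0.02 and Cat had -1.10 ± 0.03. Neither reached 2-fold under median centring (-0.20 and -0.39), no normalization or processed signals. Sod1, the cytosolic enzyme, had -0.46 ± 0.04 and was not called. The probe used for Cat and both Sod1 probes carry coordinates on the strand opposite to that of the RefSeq gene. Probe coordinates are in rn3 and RefSeq strands in GRCr8, so this mismatch alone does not show that a probe reads the other strand. The probes were not checked against transcripts. Such a mismatch was found for 7 of the 76 member probes whose gene has a RefSeq strand, and for 2 of the 49 used for a gene.

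Nqo1 and Hmox1 are the textbook targets of NRF2. Nqo1 encodes a quinone reductase. Its log2 signal was 8.76, 8.71 and 8.75 in iPS M13, against 13.43, 13.31 and 13.37 in mix1. The iPS M13 values were lower on every array, with a ratio of -4.63 ± 0.04, or 24.8-fold lower (adjusted p = 6.51e-07, limma). Hmox1, inducible heme oxygenase, had 9.77, 9.74 and 9.69 in iPS M13, against 13.07, 13.05 and 13.01 in mix1. The ratio was -3.31 ± 0.0098 (adjusted p = 6.19e-07, limma). Nqo2, a related quinone reductase, had -2.07 ± 0.06. Hmox2, the constitutive heme oxygenase, had -0.33 ± 0.03, was not called, and changed sign under median centring (0.40) and no normalization (0.34).

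**Figure D4:**
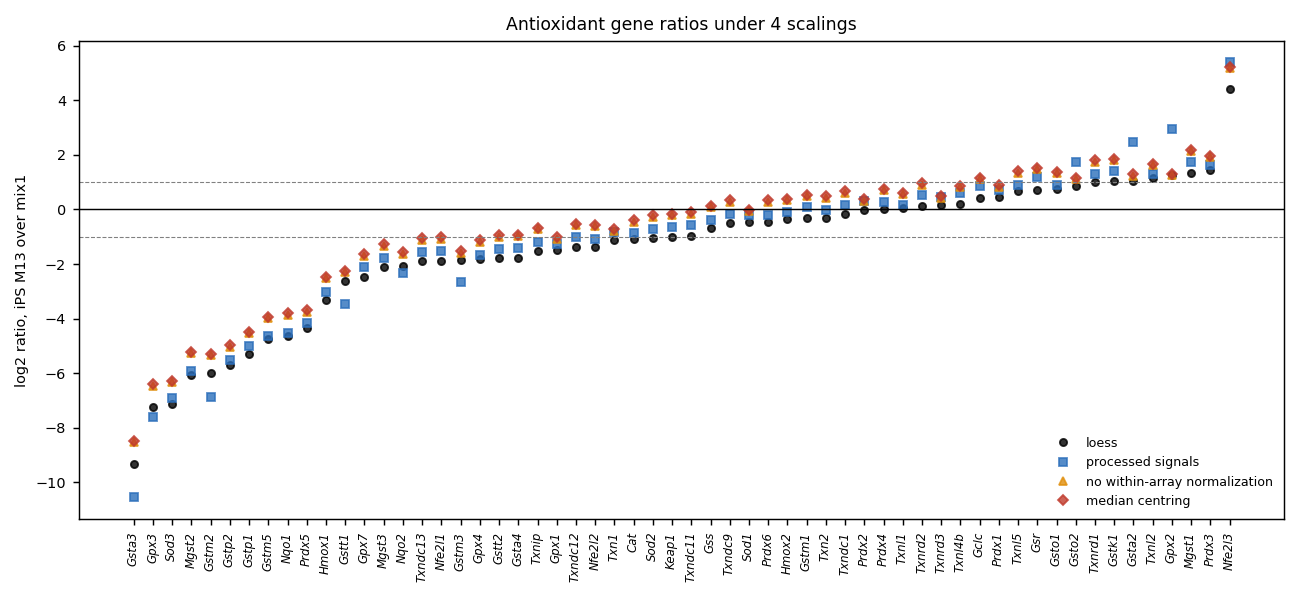
Log2 ratios of iPS M13 over mix1 of the 58 members under 4 scalings, ordered by the loess value. The points at the left, from Gsta3 to Hmox1, lie below -2 under every scaling, whereas genes near 0, such as Gss, Prdx6 and Hmox2, cross 0 between scalings.

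Gene names taken from an older array can miss paralogs. Current RefSeq names differed from the file's for 10 of the 66 members, and 10 probes would match the name rule only after such an update, among them Gpx8, Gstp3, Gstt3 and Txndc15, and were not counted. Of 14 members with more than 1 usable probe, the probes gave different calls for 2, Txnl2 and Txnrd1.

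Genes of the same pathways outside these families were described from lists chosen with results known. Of 73 tested, 4 were higher (5.48%) and 43 lower (58.9%), with a median log2 ratio of -1.19, where 18.8% of all genes were higher and 25.4% lower. With median centring 11 were higher and 30 lower, and with no normalization 10 were higher and 30 lower. Of 9 NRF2 partners and repressors, none was higher and 1 was lower, Sqstm1 (-3.84 ± 0.03), the autophagy receptor that also binds KEAP1. Among them, Mafg, a small MAF partner of NRF2, had -0.75, Bach1, a repressor at the same elements, had -0.77, and Cul3, the ubiquitin ligase scaffold, had 0.48. Of 9 genes of NADPH supply, 1 was higher, Mthfd1 (1.53 ± 0.0092), a folate enzyme, and 5 were lower, among them Pgls (-1.89), Idh1 (-2.16), Me1 (-1.57) and Nnt (-1.14).

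Of 14 genes of cystine uptake, glutathione turnover and export, 11 were lower and none higher. Anpep, an aminopeptidase that can cleave the peptides left from glutathione, had -6.82 ± 0.11, and Chac1, which degrades glutathione in the cytosol, had -4.38 ± 0.01. Ggt1, the enzyme that opens extracellular glutathione, was at least 6.61-fold lower. Of 10 glutaredoxins, sestrins, sulfiredoxin and methionine sulfoxide reductases, 3 were lower, Sesn2 (-1.99), Srxn1 (-1.87) and Msrb3 (-1.09), and none higher. Srxn1 repairs overoxidised peroxiredoxins.

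Of 17 other antioxidant and detoxification genes, 2 were higher and 13 lower. Akr1b8, an aldo-keto reductase, had -7.11 ± 0.10, and the ferritin genes Fth1 and Ftl1 had -3.69 ± 0.04 and -2.40 ± 0.08. The higher genes were Akr7a3, an aflatoxin aldehyde reductase, with 1.52 ± 0.12, and Mt1, a metallothionein, with 1.04 ± 0.02, whose value averaged over its probes was -0.18. Of 14 genes of oxidant producers, 10 were lower and 1, Maoa, was higher (1.01 ± 0.01). Xdh, xanthine dehydrogenase, was at least 47.7-fold lower, and the phagocyte NADPH oxidase genes Cyba (-5.29 ± 0.04) and Ncf4 (-5.45 ± 0.13) were lower.

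**Figure D5:**
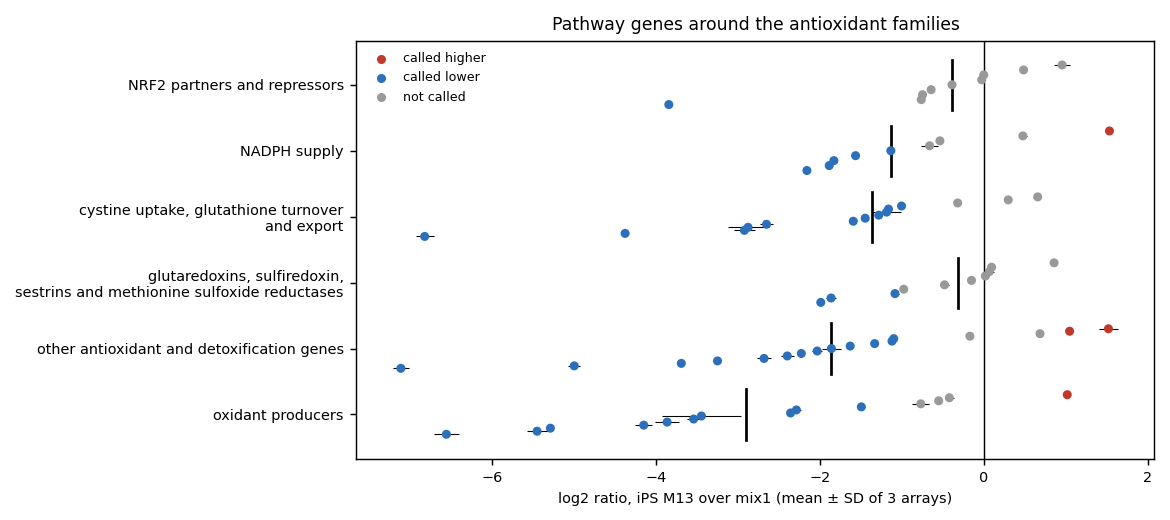
Each point is the log2 ratio of iPS M13 over mix1 of 1 pathway gene (mean of 3 arrays, bar SD), coloured by call, with the median of each list as a black line. The lists run from NRF2 partners, with 1 of 9 lower, to oxidant producers, with 10 of 14 lower.

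Markers of the cells in mix1 moved with these results. All 10 fibroblast markers were lower in iPS M13 (median -7.35), and their summed linear signal was 17385 to 20684 in iPS M13, against 2101735 to 2384475 in mix1. All 6 tested of 8 macrophage and myeloid markers were lower (median -7.10), with sums of 2820 to 3019 in iPS M13, against 260050 to 274698 in mix1. All 3 tested of 4 blood markers were lower (median -5.42). In iPS M13, Postn, Thy1, Ctss and Ptprc were dim on all 3 arrays. Of 9 pluripotency markers, 5 were tested. Pou5f1, Sox2, Dnmt3b and Tdh were higher and Lin28a was not called, whereas Nanog, Zfp42, Tdgf1 and Sall4 were not tested. Of 4 epithelial markers, 3 were higher and 1 was not called. Afp, a marker of liver and yolk sac, was the only 1 tested of 4 hepatic markers and was higher (3.83 ± 0.18). No erythroid marker was tested. The part of these cell differences in the ratios of the antioxidant genes was not tested.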

How the data were processed

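RNA of 3 iPS M13 samples and of mix1 was measured on 3 two-colour Agilent arrays of 45018 spots. The deposited files hold raw scanner intensities, a Cy3 and a Cy5 signal with its local background for each spot, per the file headers. The submitters' processing notes name Agilent Feature Extraction, version 9.5.3.1 per the file headers. Its processed intensities were detrended and dye-normalized, and its log10 ratios are Cy5 over Cy3, per the file headers. The authors' deposited value table holds log2 ratios with no stated direction, scale or centring. Set against the log10 ratios, its columns had slopes of -3.32, so it was read as log2 of Cy3 over Cy5, and its column medians were -0.0413, -0.0282 and -0.0286. Whether the authors centred it is unknown.

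Background (the local median) was removed from mean signals with normexp at an offset of 50, then loess was applied within arrays, using limma 3.58.1 (R 4.3.3, data.table package version 1.17.8). Outlier spots were left out (205, 263 and 192 on replicates 1, 2 and 3). A probe was kept if 1 channel, the same throughout, was well above background on every array, and the brightest kept probe stood for a gene. Ratios were tested against 0 with lmFit and eBayes over all 20347 genes. Signals per RNA are after loess and Aquantile. Probes well above background made up 53.5% to 60.8% of probes in iPS M13 and 52.4% to 61.0% in mix1, and with 3 arrays their number limits the precision. Correlations between arrays were 0.997 to 0.998. Only the step that tests and calls ratios was run on simulated data, with normally distributed ratios. Background removal, loess, the filter and the choice of probe were not simulated. Names, promoters and figures were handled in Python 3.11.15 (matplotlib 3.10.9, numpy 2.4.6, pandas 2.3.3).

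The members and gene lists were chosen with earlier results of these data known. Named genes are all members called, a fixed set of central members, and the highest and lowest 3 called pathway genes, with further pathway genes chosen after their values were seen. Alternatives were other scalings, filters, probe summaries, a GC trend, a 2-fold treat test and leaving out each replicate.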

Additional observations from a re-analysis of the deposited data

How the results depend on the processing

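Of the 37 called members, 4 of the 8 higher and 14 of the 29 lower had the same call under all 12 alternatives, as did 16 of the 21 not called. A further 1 higher gene (Gpx2) and 5 lower genes (Gpx3, Gsta3, Gstm2, Gstm3 and Gstt1) had the same call wherever they were tested, but were not tested with both channels above background. Gclc, Gsr, Gsto1, Gsto2 and Txnl5 gained a call under at least 1 alternative. With no within-array normalization, median centring and processed signals, the count of all genes called higher was 7005, 7409 and 6320, against 3819 with loess, and the share of higher calls was 65.1%, 67.2% and 56.6%, against 42.5%. The deposited value table gave 6320 and 56.6%. Members called higher numbered 13, 13 and 10 under the first 3 settings, and 5 with treat. Pathway genes called higher numbered 10 and 11 with no normalization and median centring and 2 with treat, against 4 with loess. The members' median was -0.19 with no normalization, -0.13 with median centring, -0.61 with processed signals or the value table, -0.45 with no filter on dim probes, -0.82 with both channels above background and -0.88 with the GC trend removed. Signs reversed as follows. With no normalization and median centring, Gss was 0.087 and 0.14, Gstm1 0.48 and 0.54, Hmox2 0.34 and 0.40, Prdx2 0.32 and 0.37, Prdx6 0.29 and 0.34, Txn2 0.43 and 0.48, Txndc1 0.60 and 0.66, and Txndc9 0.28 and 0.34. With processed signals and with the value table, Gstm1 was 0.072, Prdx2 0.32 and Txndc1 0.18. With the GC trend removed, Prdx2 was 0.077, Prdx4 -0.36, Prdx6 0.092, Txn2 0.085, Txnl1 -0.26, Txnl4b -0.0089 and Txnrd3 -0.11. Averaged over its probes, Mt1 was -0.18. Leaving out each replicate, Prdx2 ran from -0.051 to 0.0036, the highest without replicate 2. The causes were not tested. Leaving out each replicate gave 3742 to 3910 genes higher and 5127 to 5208 lower, 7 to 8 members higher and 28 to 29 lower, and a members' median of -0.99 to -0.98. No paired analysis was possible because the 3 samples form 1 group and mix1 was the same RNA on each array. Genes not well above background have only a bound on their level.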
